A study of Mus musculus with 12 samples.

Results

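The miR-181 family was followed across all arrays of a study of fat cell differentiation in 3T3-L1, an established line of mouse preadipocytes. The family was taken as the guide strands named mmu-miR-181a, mmu-miR-181b, mmu-miR-181c and mmu-miR-181d in the scanner files. These are 4 of the 611 mouse microRNAs (miRNAs) on the array and 8 of its 1759 mouse probes, with 2 probes per member and 10 spots per probe. The 12 arrays formed 4 groups of 3. MDI cells were kept for 3 days in an inducing medium that holds isobutylmethylxanthine (IBMX), dexamethasone and insulin, then for 2 days in insulin alone and for 2 days in plain medium, and were harvested on day 7. Cells of the lithium group were given 25 mM lithium chloride. The lithium plus MDI group had both 25 mM lithium chloride and the inducing medium. Preadipocytes are given no treatment in the labels. The labels give no schedule for the last 3 groups, so time in culture and treatment cannot be told apart. Each array carried Cy3-labelled material from 0.5 ug of total RNA. Nothing in the labels places the samples of a group in separate cultures, so each p-value reflects the scatter among these particular samples, which may be technical only.

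The family was put forward because miR-181a and miR-181b had already been seen to lie low after MDI or lithium on these same arrays. Every difference of the members from the preadipocytes is therefore given below as a description, with its standard error and without a test. The members were tested only between the 3 treated groups, which share arrays with those descriptions and with one another. The low MDI and lithium values that chose the family favour higher values for lithium plus MDI in its tests against those groups. The test of MDI against lithium has such values on both sides, so it is not free of that choice either. Other miRNAs were tested in all 6 comparisons.

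A miRNA is cut from a hairpin precursor as a short duplex. The guide strand is loaded into an Argonaute protein and represses messenger RNAs that match its seed, bases 2 to 8 from the 5′ end, while the passenger strand is mostly degraded. The miR-181 family is best known from blood: in mouse T cells miR-181a tunes the sensitivity of the antigen receptor. In mouse white fat cells the family has been tied to obesity and insulin resistance, and in porcine preadipocytes miR-181a has been reported to favour differentiation. Lithium inhibits the kinase GSK-3 and so activates Wnt signalling, which holds preadipocytes back from becoming fat cells.

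The guide sequences are shown because the 4 members carry one seed and differ in few other bases. All 4 members were matched to RefSeq mature sequences on GRCm38.p6. Capitals mark the seed.
mmu-miR-181a: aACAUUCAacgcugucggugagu
mmu-miR-181c: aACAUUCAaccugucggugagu
mmu-miR-181b: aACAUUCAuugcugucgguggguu
mmu-miR-181d: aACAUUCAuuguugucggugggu

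The seed ACAUUCA belongs to these 4 names alone among the 1679 mature mouse miRNA names of the RefSeq table. Outside the seed the family falls into 2 pairs. Aligned end to end, miR-181a and miR-181c had 22 identical bases, no mismatch and 1 unpaired base, and miR-181b and miR-181d had 22 identical bases, 1 mismatch and 1 unpaired base. Across the pairs, miR-181a and miR-181b had 20 identical bases, 3 mismatches and 1 unpaired base. The sources used here give no probe sequences, and how far a probe for one member also bound another was not tested.

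The same guide can come from more than one place in the genome. miR-181a lies at chr1:137966468-137966490 and at chr2:38852741-38852763. miR-181b lies downstream of it at chr1:137966650-137966673 and at chr2:38853845-38853868, all on the plus strand. The hairpins Mir181a-1 and Mir181b-1 are 97 bases apart on chromosome 1, and Mir181a-2 and Mir181b-2 are 1019 bases apart on chromosome 2, inside the genes Nr6a1 and Nr6a1os. miR-181d (chr8:84178759-84178781) and miR-181c (chr8:84178924-84178945) lie close together on the minus strand of chromosome 8. An array that reads the mature RNA cannot tell the copy on chromosome 1 from that on chromosome 2.

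Levels below are log2 of the background-subtracted signal after scaling every array to the 75th percentile of the 181 probes detected on all arrays. A value of 0 is thus as bright as that percentile, and the lowest value given is a floor of -4.97. A probe counted as detected on an array when most of its spots were well above background. Between 126 and 177 mouse miRNAs were detected per array, and 157 were tested. The scaling factor was lower on the treated arrays than on the preadipocyte arrays: 264 to 382 scanner units for MDI, 316 to 414 for lithium and 265 to 477 for lithium plus MDI, against 503 to 780 for preadipocytes. Of 6 mesenchymal marker miRNAs, 5 were detected on every array, whereas 2 of 24 markers of other cell types were detected on any. None of the 6 blood markers was detected on any array.

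The groups did not separate cleanly, and 6 of the 12 arrays were closer to another group than to their own by correlation. The 3 with the lowest correlation to their own group are called here the arrays that stood apart. Since they were picked for that low correlation, leaving them out narrows the spread within groups and favours passes. For lithium array 1 the mean r was 0.942 to the other lithium arrays and 0.960 to MDI. For lithium plus MDI array 3 it was 0.924 within the group and 0.965 to the preadipocytes, and for preadipocyte array 3 it was 0.939 within the group and 0.957 to lithium. Lithium plus MDI arrays 1 and 2 were also closer to MDI (mean r 0.974 and 0.966) than to their own group (0.959 and 0.944). Thus no lithium plus MDI array was closest to its own group. Slide 1 held the 3 preadipocyte arrays and MDI array 1, and slide 2 held the other 8 arrays.

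Only miR-181a and miR-181b of the family were measured well above background. They were detected on all 12 arrays by their brighter probes, with a median variation between spots of 5.78% and 5.45%. miR-181c and miR-181d were not well above background on any of the 12 arrays with either probe. Their signals ran from -2.62 to 8.03 scanner units for miR-181c and from -2.20 to 12.01 for miR-181d, whereas the dimmest detected probe of an array read 9.61 to 18.4 units. No level or fold is given for either.

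miR-181a was dimmest after MDI. Its level was -2.72, -3.20 and -3.63 on MDI arrays 1 to 3, -2.20, -2.55 and -2.13 on the lithium arrays, -2.65, -2.96 and -1.36 on the lithium plus MDI arrays, and -1.29, -1.51 and -1.80 on the preadipocyte arrays. Every MDI and every lithium array lay below every preadipocyte array, while lithium plus MDI array 3 lay inside the preadipocyte range. The group means were -3.18 ± 0.45 for MDI, -2.29 ± 0.22 for lithium, -2.32 ± 0.85 for lithium plus MDI and -1.53 ± 0.25 for preadipocytes (SD, n = 3 each). From low to high the order was MDI, lithium plus MDI, lithium and preadipocytes, and the means of the middle pair differed by far less than their spread.

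miR-181b was low in both single treatments, and its lithium arrays lay close together. Its level was -2.56, -3.14 and -3.46 on the MDI arrays, -2.81, -2.89 and -2.78 on the lithium arrays, -2.41, -2.63 and -1.50 on the lithium plus MDI arrays, and -0.97, -0.93 and -1.97 on the preadipocyte arrays. The MDI and lithium arrays again all lay below the preadipocyte arrays, and lithium plus MDI array 3 again lay inside the preadipocyte range. The group means were -3.05 ± 0.45 for MDI, -2.83 ± 0.06 for lithium, -2.18 ± 0.60 for lithium plus MDI and -1.29 ± 0.59 for preadipocytes (SD, n = 3 each). The order was MDI, lithium, lithium plus MDI and preadipocytes, and the means of MDI and lithium differed by less than the spread of the MDI arrays. Because these are bulk samples, fewer cells that carry a miRNA and less of it per cell cannot be told apart.

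**Figure D1:**
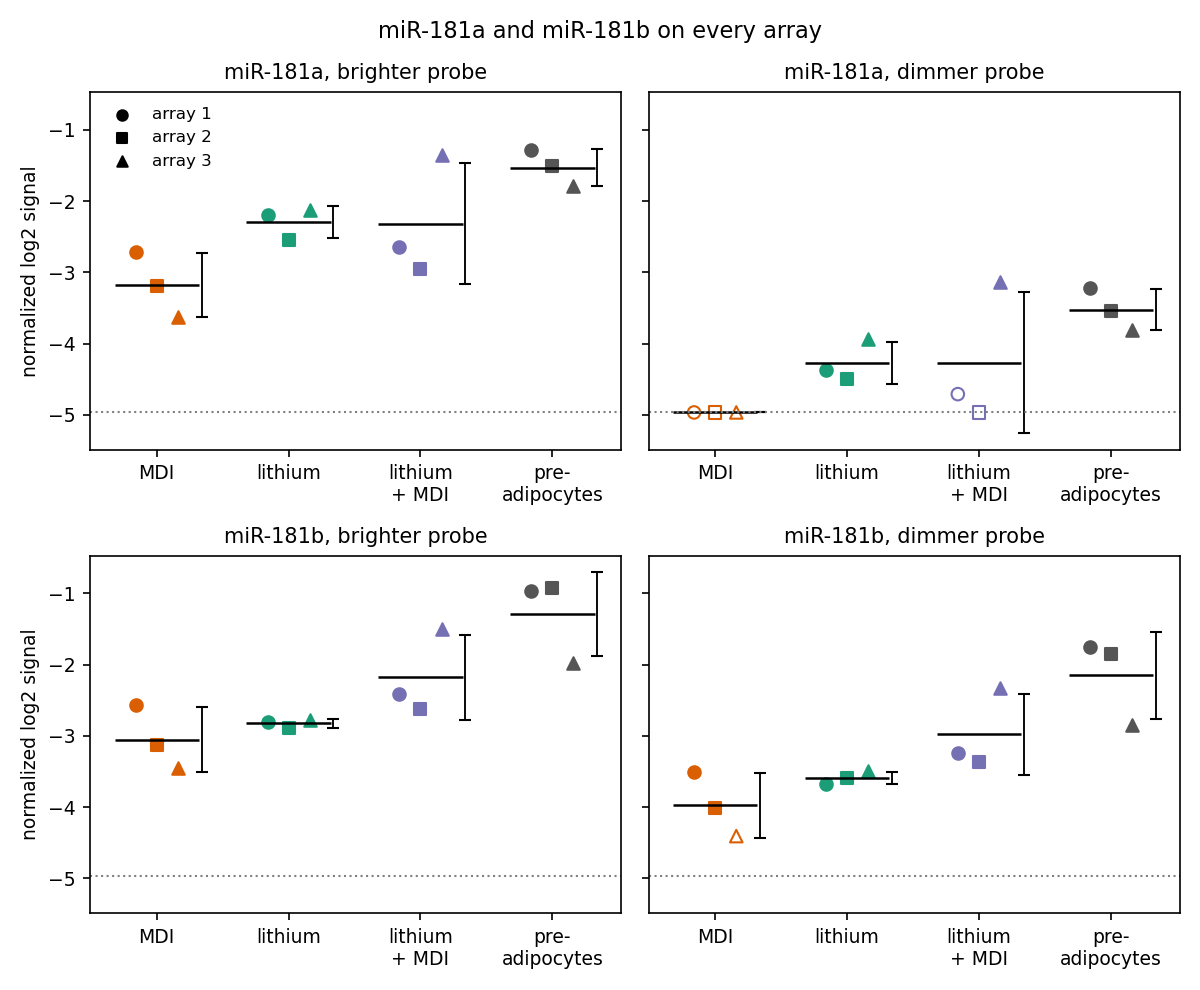
Normalized log2 signal (y axis) of both probes of miR-181a and miR-181b on each array, by group (x axis); filled points are detected, open points are not, black lines are group means, bars are SD (n = 3) and the dotted line is the floor at -4.97. The MDI and lithium points of both brighter probes lie below the preadipocyte points, and lithium plus MDI array 3 lies above arrays 1 and 2 of its group in all 4 panels.

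The second probe of each member is not a replicate, since it reads the same RNA, but it shows whether a pattern belongs to one probe. The dimmer probe of miR-181b was detected on 11 of 12 arrays, lacking MDI array 3, and over the 12 arrays it correlated with the brighter probe at r = 0.995. Its group means were -3.98 ± 0.45 for MDI, -3.59 ± 0.09 for lithium, -2.98 ± 0.57 for lithium plus MDI and -2.15 ± 0.60 for preadipocytes (SD, n = 3 each). Both probes of miR-181b thus gave the same order of groups.

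The dimmer probe of miR-181a was detected on 7 arrays: none for MDI, 3 for lithium, 1 for lithium plus MDI (array 3) and 3 for preadipocytes. It read 8.28, 8.52 and 4.65 scanner units on the MDI arrays, 15.3, 18.1 and 26.9 on the lithium arrays, 10.1, 11.0 and 54.1 on the lithium plus MDI arrays, and 53.9, 49.5 and 55.7 on the preadipocyte arrays. The MDI arrays give only a bound for this probe, which was at least 1.77-fold lower in MDI than in preadipocytes and at least 1.05-fold lower in MDI than in lithium. The bound sets the mean over the preadipocyte or lithium arrays against the lowest signal well above background on each MDI array. The probes of miR-181a correlated at r = 0.950 over the 12 arrays, and the brighter probes of miR-181a and miR-181b at 0.885, with the arrays' scaling shared by both.

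Against the preadipocytes, both members were lower after MDI, by 3.14-fold for miR-181a and 3.39-fold for miR-181b. The log2 differences were -1.65 (SE 0.38) for miR-181a and -1.76 (SE 0.37) for miR-181b, and -1.82 for the dimmer probe of miR-181b. They stood 4th and 3rd from the lowest of the 157 tested miRNAs, whose median difference was 0.10. Neither member's groups overlapped, as was so for 10.8% of tested miRNAs in that direction, and 3.18% of tested miRNAs passed the limma test (adjusted p under 0.05) in either direction. These values chose the family and nothing is read from them. With the slide as a block the differences were -1.19 and -1.27, which rest on MDI array 1, the one MDI array on the slide of the preadipocytes.

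After lithium the members were lower by unequal amounts, 1.70-fold for miR-181a and 2.90-fold for miR-181b. The log2 differences of lithium from preadipocytes were -0.76 (SE 0.38) and -1.54 (SE 0.37), and the dimmer probes gave -0.75 and -1.44. The difference of miR-181b was the lowest of the 157 and that of miR-181a the 18th from the lowest, with a median over all of -0.07. Neither member's lithium arrays overlapped the preadipocyte arrays, as was so for 12.7% of tested miRNAs in that direction, and 6.37% passed the limma test in either direction. The groups lay on different slides. With a slide term, estimated through the MDI arrays, the differences were -0.07 for miR-181a and -0.80 for miR-181b.

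Lithium plus MDI left smaller differences from the preadipocytes. They were -0.79 (SE 0.38, 1.73-fold lower) for miR-181a and -0.89 (SE 0.37, 1.85-fold lower) for miR-181b, against a median of 0.30 over all tested miRNAs. Both members' groups overlapped, whereas 3.82% of tested miRNAs lay wholly below the preadipocytes and 1.27% passed the limma test in either direction. Lithium plus MDI array 3 decided the size: without it the differences were -1.27 and -1.23, without all 3 arrays that stood apart they were -1.41 and -1.57, and with the slide as a block they were -0.10 and -0.16.

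**Figure D2:**
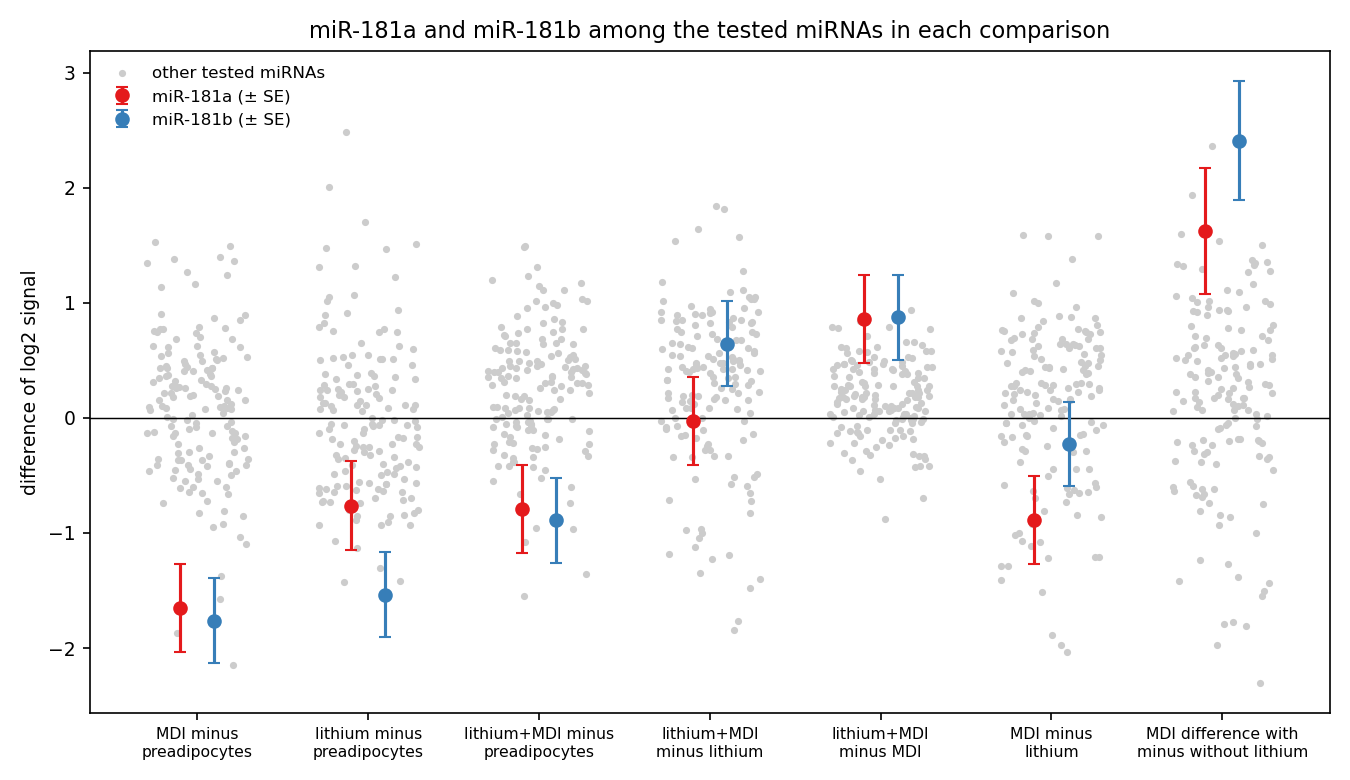
Difference of log2 signal (y axis) in each comparison (x axis) for miR-181a (red) and miR-181b (blue), with bars of 1 SE, over the other tested miRNAs (grey points). Both members lie near the bottom for MDI and for lithium plus MDI against preadipocytes. For lithium against preadipocytes miR-181b is the lowest point and miR-181a is 18th from the lowest. Both members lie near the top for lithium plus MDI minus MDI.

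Lithium plus MDI cells were set against lithium cells, which asks what the differentiation medium changes when lithium is present. Neither member passed, and whether the members differed from each other was not tested. miR-181b was 1.56-fold higher in lithium plus MDI, a log2 difference of 0.65 (95% interval -0.15 to 1.44, limma adjusted p = 0.235), and 0.61 with its dimmer probe. All lithium plus MDI arrays of miR-181b lay above all lithium arrays, as was so for 26.1% of tested miRNAs in that direction. The low lithium values of miR-181b helped choose the family, which favours a high difference here. miR-181a differed by -0.03 (95% interval -0.86 to 0.80, limma adjusted p = 0.960), its groups overlapped, and its sign turned under some alternatives. The median over all tested miRNAs was 0.39, so miR-181b lay slightly above that median and miR-181a below it. No miRNA passed in this comparison (0%), although 48 had an unadjusted limma p under 0.05. Without lithium plus MDI array 3 the differences were 0.30 for miR-181b and -0.51 for miR-181a, and 38 of the tested miRNAs passed in that fit. Without all 3 arrays that stood apart they were 0.31 and -0.47, neither passed, and 88 miRNAs did. Without lithium array 1 the count was 32, without preadipocyte array 3 it was 24 and without MDI array 1 it was 10. The difference of miR-181b was 0.40 with normexp background correction, 0.24 with quantile normalization and 0.23 in the authors' deposited table. In the authors' table lithium plus MDI arrays 1 and 2 of miR-181b lay below all lithium arrays, and only array 3 lay higher.

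Lithium plus MDI cells were also set against MDI cells, which asks what lithium changes in induced cells. Both members were brighter in lithium plus MDI, miR-181a by 0.86 on the log2 scale (95% interval 0.03 to 1.69, 1.82-fold) and miR-181b by 0.87 (0.08 to 1.67, 1.83-fold). They were the third and the second highest of the 157 differences, whose median was 0.18. The family was chosen in part for its low MDI values, which favours high differences, high ranks and small p-values here. Neither member passed: the limma adjusted p was 0.781 for each, after unadjusted values of 0.0429 and 0.0335. The groups of both members overlapped, whereas 11.5% of tested miRNAs lay wholly higher in lithium plus MDI. No miRNA passed in this comparison (0%), and 6 had an unadjusted limma p under 0.05. Without lithium plus MDI array 3 the differences were 0.38 for miR-181a and 0.53 for miR-181b, and with normexp background correction they were 0.40 and 0.39. Within slide 2, without MDI array 1, they were 1.09 and 1.12 (limma adjusted p = 0.445 and 0.242).

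Between MDI and lithium cells neither member passed. The estimated difference was larger for miR-181a than for miR-181b, which was not tested. Low values in both of these groups chose the family, so these p-values are not free of that choice. miR-181a was 1.85-fold lower in MDI, a log2 difference of -0.89 (95% interval -1.72 to -0.06, limma adjusted p = 0.218), and every MDI array lay below every lithium array, as was so for 12.1% of tested miRNAs in that direction. For miR-181b the difference was -0.23 (95% interval -1.02 to 0.57, limma adjusted p = 0.693), with overlapping arrays. With normexp background correction the difference of miR-181a was -0.35. The median over all tested miRNAs was 0.21. No miRNA passed (0%), and 33 had an unadjusted limma p under 0.05. Without the 3 arrays that stood apart the difference of miR-181a was -0.84 and its limma adjusted p was 0.0314. In that fit 66 of the tested miRNAs passed. Those arrays were picked for low correlation to their own group, which favours such passes, so nothing is read from them.

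The MDI difference of miR-181b can be set side by side with and without lithium. Set against the mean of the lithium arrays, the lithium plus MDI arrays lay at 0.20 to 1.33, a difference that did not pass its test (0.65, limma adjusted p = 0.235). Set against the mean of the preadipocyte arrays, the MDI arrays lay at -2.17 to -1.27. The difference between the differences was 2.41 (SE 0.52) for miR-181b, the highest of the 157, and 1.62 (SE 0.54) for miR-181a, ranked 154th from the lowest, with a median over all of 0.26. It holds the preadipocyte comparison that chose the family, which favours a large value, so it was not tested for these members.

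The levels of the members can be compared within an array, where the scaling cancels. The log2 signal of miR-181b minus that of miR-181a depends on how brightly each probe reads, so only its change between groups has meaning. This measure was chosen after the values had been seen. With the brighter probes it was 0.16, 0.06 and 0.17 on the MDI arrays, -0.61, -0.35 and -0.65 on the lithium arrays, 0.23, 0.33 and -0.14 on the lithium plus MDI arrays, and 0.32, 0.58 and -0.18 on the preadipocyte arrays. The lithium arrays lay below all 9 others. How many pairs of other miRNAs set a group apart in this way was not counted.

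The mean of that measure was 0.13 ± 0.06 for MDI, -0.53 ± 0.16 for lithium, 0.14 ± 0.25 for lithium plus MDI and 0.24 ± 0.38 for preadipocytes (SD, n = 3 each). Lithium plus MDI exceeded lithium by 0.67 (SE 0.17), MDI exceeded lithium by 0.66 (SE 0.10), and lithium plus MDI exceeded MDI by 0.01 (SE 0.15). No test is given, since the measure was chosen from the data and an exact permutation test of 3 arrays against 3 cannot go below p = 0.1. With the dimmer probes, lithium minus preadipocytes was -0.69, against -0.77 with the brighter ones. Both dimmer probes lay above the floor on 2 lithium plus MDI arrays and on no MDI array. On lithium plus MDI array 1 the dimmer probe of miR-181a was above the floor but not detected. With the dimmer probes lithium array 2 (0.90) lay above lithium plus MDI array 3 (0.81). Without the 3 arrays that stood apart the differences were 0.78 for lithium plus MDI minus lithium, 0.63 for MDI minus lithium and -0.95 for lithium minus preadipocytes.

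**Figure D3:**
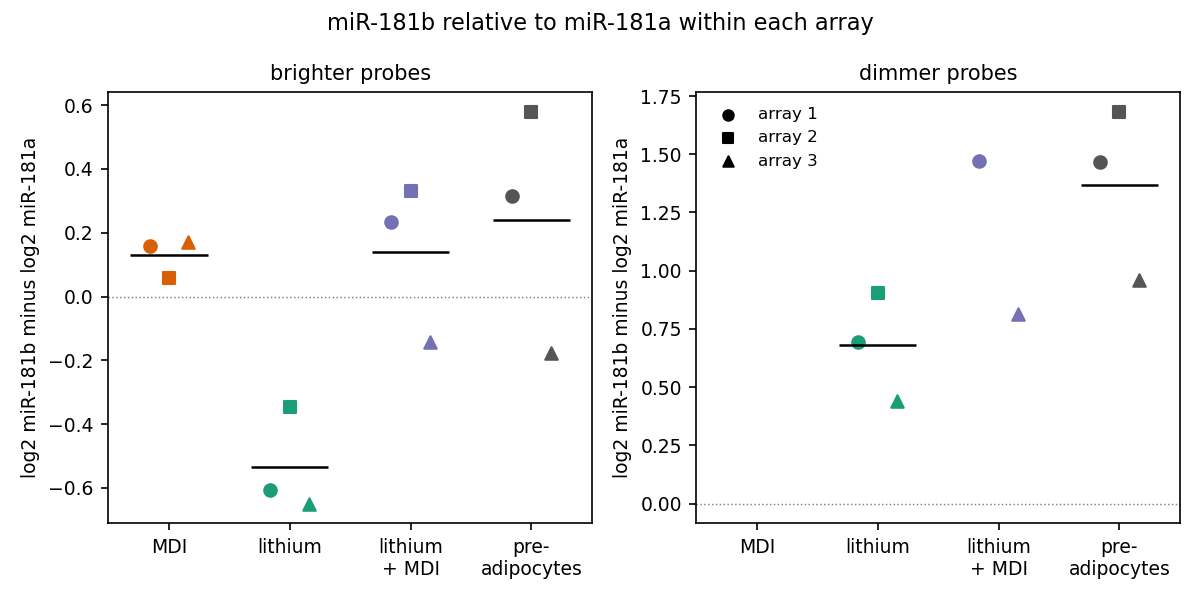
The log2 signal of miR-181b minus that of miR-181a (y axis) on each array by group (x axis), for the brighter and the dimmer probes; black lines are means of groups with all 3 arrays detected. With the brighter probes the lithium arrays lie at -0.65 to -0.35 and every other array lies higher, and dimmer probes are shown where both lay above the floor.

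miR-181c and miR-181d stayed under the detection limit, yet one probe of each read unequal signals across the groups. Probe A_54_P2983 of miR-181d read 2.31, -0.188 and 1.63 scanner units on the MDI arrays, 0.671, 1.99 and 1.62 on the lithium arrays, 4.19, 5.03 and 8.28 on the lithium plus MDI arrays, and 9.10, 12.01 and 9.12 on the preadipocyte arrays. These are unscaled readings, and the preadipocyte arrays were the brightest overall. The scanner software's own call per miRNA listed miR-181d as detected on 3 arrays, preadipocyte arrays 2 and 3 and lithium plus MDI array 3.

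Probe A_54_P1484 of miR-181c read -1.71, 0.0790 and -0.116 units on the MDI arrays, 2.15, 2.81 and 5.71 on the lithium arrays, 1.19, 1.14 and 8.03 on the lithium plus MDI arrays, and 3.30, 4.49 and 6.50 on the preadipocyte arrays. The MDI arrays lay lowest and lithium plus MDI array 3 highest. The scanner software called miR-181c on 0 arrays. The other probes of miR-181c and miR-181d read at most 2.77 and 1.14 units.

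The passenger strand miR-181a-1*, cut from the hairpin Mir181a-1 on chromosome 1, differs in sequence from that of the chromosome 2 copy. Whether its probes also bound that other strand was not tested. miR-181a-1* is shown with its seed in capitals. The hairpin (chr1:137966455-137966541, plus strand, RefSeq, GRCm38.p6) follows, with the guide and then the passenger strand in capitals.
mmu-miR-181a-1*: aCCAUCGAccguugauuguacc
Mir181a-1: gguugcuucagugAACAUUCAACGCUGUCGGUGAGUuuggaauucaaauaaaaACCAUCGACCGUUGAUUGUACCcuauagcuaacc

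By probe A_54_P3517, miR-181a-1* was detected on the 3 preadipocyte arrays and on lithium plus MDI array 3, and on no MDI or lithium array. On preadipocyte array 3 that call rested on 60% of the spots, and the scaled value lay at the floor. Its other probe, A_54_P3518, was detected on no array and read at most 13.0 scanner units. Probe A_54_P3517 read 4.63, 7.90 and 4.43 scanner units on the MDI arrays, 1.97, 5.81 and 7.57 on the lithium arrays, 4.20, 7.01 and 18.3 on the lithium plus MDI arrays, and 19.5, 19.7 and 13.9 on the preadipocyte arrays. No fold is given, since these are readings close to the detection limit and the preadipocyte arrays were the brightest overall. The passenger strand of the chromosome 2 copy, miR-181a-2*, was detected on no array.

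**Figure D4:**
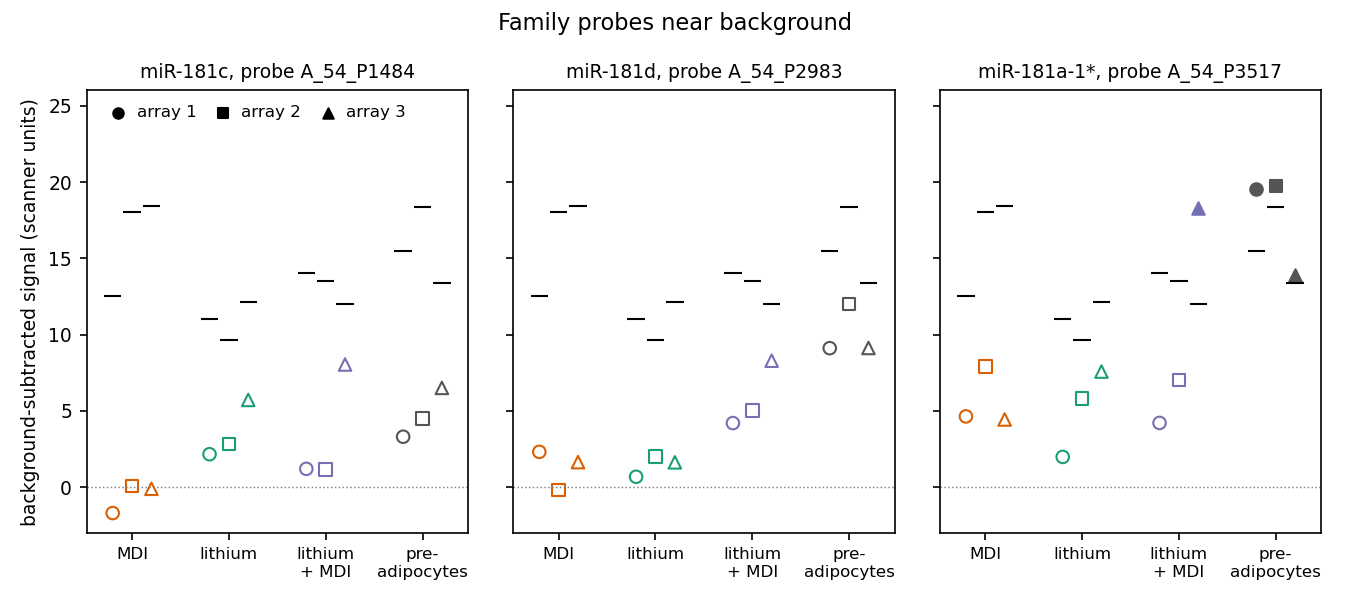
Background-subtracted signal in scanner units (y axis) of a probe each of miR-181c, miR-181d and the passenger strand miR-181a-1* on every array by group (x axis); filled points are detected, open points are not, and the short black lines mark the dimmest detected probe of that array (9.61 to 18.4 units). Only miR-181a-1* reaches detection, on the 3 preadipocyte arrays and lithium plus MDI array 3.

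The miRNAs whose levels followed miR-181a most closely over the 12 arrays were miR-455 (Pearson r = 0.934), miR-30d (0.889), miR-10b (0.886), miR-210 (0.868) and miR-582-5p (0.847). miR-455 has been tied to brown fat, miR-10b lies among the Hoxd genes, and miR-210 is induced by low oxygen and has been reported to promote fat cell differentiation. miR-10b averaged -1.55 for MDI, -0.48 for lithium, -0.76 for lithium plus MDI and 0.32 for preadipocytes. miR-455 averaged -4.25, -3.81, -3.83 and -2.88 in the same order of groups. miR-582-5p was at the floor on 7 arrays.

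For miR-181b the closest were miR-652 (r = 0.884), miR-455 (0.882), miR-320 (0.872), miR-331-3p (0.863) and miR-582-5p (0.846). miR-320 has been linked to insulin resistance in 3T3-L1 fat cells. miR-652 averaged -1.33 for MDI, -1.27 for lithium, -0.67 for lithium plus MDI and -0.61 for preadipocytes. All these correlations share the arrays and their scaling, and none was tested.

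The miR-23a, miR-27a and miR-24 hairpins lie within 50 kb of Mir181d in the RefSeq annotation, and all 3 miRNAs were tested. miR-27a, which represses the fat cell regulator PPARgamma, passed as higher in lithium plus MDI than in preadipocytes, by 1.31 on the log2 scale (SE 0.23, limma adjusted p = 0.0133). In that comparison 1.27% of all tested miRNAs passed. The call of miR-27a was lost with the slide as a block (1.68, limma adjusted p = 0.0535), without preadipocyte array 1 or lithium plus MDI array 1, with only the 6 arrays compared (1.31, 0.149) and with normexp (1.44, 0.414). It was also lost when arrays were scaled on every mouse probe (0.26, limma adjusted p = 0.575), without scaling (0.58, 0.168) and in the authors' deposited table (1.24, 0.0688), and held without the 3 arrays that stood apart (1.21). In lithium plus MDI against lithium none of the 3 passed, nor did any of all tested miRNAs (0%), with a median difference of 1.01 against 0.39 over all tested. miR-24 was higher there by 1.04 (limma adjusted p = 0.0849), miR-23a by 1.01 (0.0788) and miR-27a by 0.68 (0.0849). In MDI against preadipocytes their median was 0.10, as it was over all tested. In lithium against preadipocytes their median was -0.59, against -0.07 over all tested. The mature miR-24 can also come from another locus, which the array does not tell apart.

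Of 12 miRNAs known from immune cells and inflammation, as miR-181a is, 7 were tested. In lithium against preadipocytes 1 of the 7 passed, beside 6.37% of all tested miRNAs. It was miR-155, which is induced on immune activation, with a difference of -1.42 (SE 0.38, limma adjusted p = 0.0382). That call held without the 3 arrays that stood apart (-1.86), was lost in 8 of the 12 fits without 1 array (all but those without lithium array 1, lithium plus MDI array 2 or 3 or preadipocyte array 3), and was lost with the slide as a block (-1.49, limma adjusted p = 0.363). It was also lost with normexp (-1.06, limma adjusted p = 0.694), with only the 6 arrays compared (0.132), with the median over probes (0.0503), with the replicate block (0.0515) and under the other filters on dim probes (0.0684 to 0.0738). The largest others were miR-146a at -0.93 (limma adjusted p = 0.252), miR-221 at -0.85 (0.120) and miR-146b at 0.79 (0.582). The median of the list was -0.57, against -0.07 over all tested. In lithium plus MDI against lithium none of the list or of all tested miRNAs (0%) passed, and the median was 0.82 against 0.39 over all tested. None of the list passed in MDI against preadipocytes, where its median was -0.08, against 0.10 over all tested, and 3.18% of all tested miRNAs passed. None passed in lithium plus MDI against MDI either, where its median was 0.09, against 0.18 over all tested, and 0% of all tested passed.

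Of 15 miRNAs reported to promote fat cell differentiation, 12 were tested, and none passed in any comparison. Against preadipocytes, the share of all tested miRNAs that passed was 3.18% for MDI, 6.37% for lithium and 1.27% for lithium plus MDI, and between the treated groups it was 0%. The largest difference in MDI against preadipocytes was that of miR-210 at -1.58 (limma adjusted p = 0.0614), followed by miR-20a of the miR-17 cluster at 1.38 (0.0830). The median of this list was -0.38 in MDI against preadipocytes, 0.38 in lithium against preadipocytes and -0.81 in MDI against lithium. Over all tested miRNAs the median was 0.10, -0.07 and 0.21 in the same order. In MDI against lithium the largest were miR-146b at -1.89 (limma adjusted p = 0.218) and miR-148a at -1.29 (0.104).

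Of 11 reported to inhibit differentiation, 9 were tested, among them miR-155 and miR-27a, whose passes are given above. No other member of this list passed in any comparison. Its median was 0.90 in lithium plus MDI against lithium, beside 0.39 over all tested miRNAs, of which 0% passed. The largest there were miR-27b at 1.57 (limma adjusted p = 0.0849) and miR-193b at -1.35 (0.0728). In lithium against preadipocytes the median of the list was -0.46, beside -0.07 over all tested miRNAs, of which 6.37% passed. The lists overlap: miR-155, miR-221 and miR-222 stand in the immune and the inhibiting list, and miR-21 and miR-146b in the immune and the promoting list.

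The authors' deposited table of normalized values, read as log2, also put the MDI and lithium arrays of both members below all preadipocyte arrays. There miR-181a read 5.53, 5.15 and 4.66 for MDI, 6.28, 6.01 and 6.47 for lithium, 5.53, 5.15 and 7.02 for lithium plus MDI, and 7.12, 6.93 and 6.93 for preadipocytes. In the same table miR-181b read 6.22, 5.57 and 5.19 for MDI, 6.15, 6.06 and 6.11 for lithium, 5.97, 5.78 and 7.25 for lithium plus MDI, and 7.73, 7.55 and 7.12 for preadipocytes. Lithium plus MDI arrays 1 and 2 of miR-181b thus lay below all lithium arrays there, unlike in the values reported above, and only array 3 lay higher. The differences of MDI from preadipocytes were -1.88 and -1.81 from the authors' deposited table, and those of lithium from preadipocytes -0.74 and -1.36.

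**Figure D5:**
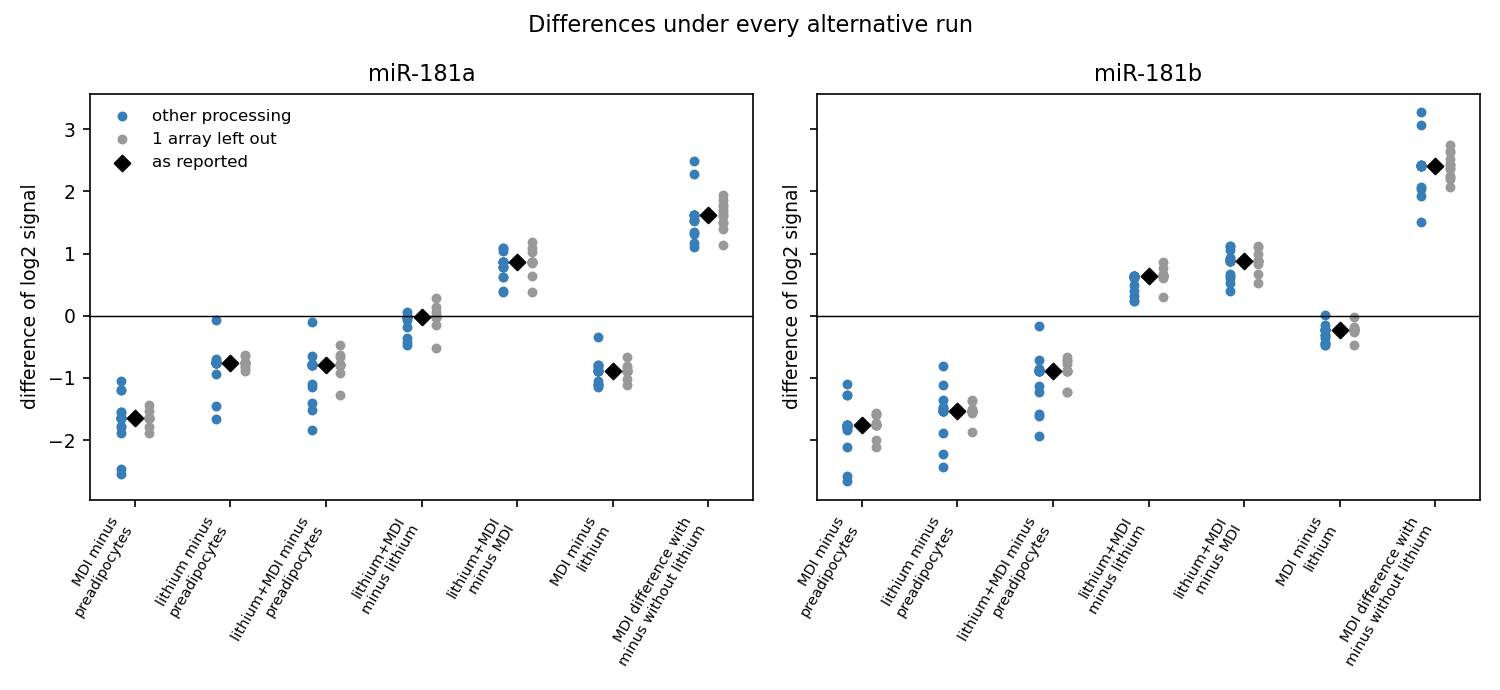
Difference of log2 signal (y axis) of miR-181a and miR-181b in each comparison (x axis), as reported (black diamonds), under other processing (blue) and with 1 array left out (grey). All values against preadipocytes lie below 0, from -2.66 to -0.07, a direction that the choice of the family favours. For miR-181a, lithium plus MDI minus lithium runs from -0.51 to 0.29.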

How the data were processed

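miRNAs were measured on 12 single-colour Agilent arrays of 3T3-L1 cells. The deposited scanner files hold an intensity for each spot, already background-subtracted but unscaled across arrays. Per the file headers the program was Feature Extraction 10.5.1.1, whereas the submitters' processing notes name 9.5.3. The authors' deposited value table was read as log2, since each column correlated with the log2 total signal of its array at r of 0.997 or above. Its column medians are 0.00175 to 0.0958, its centring and its handling of dim signals are unknown, and it served as an alternative. Its highest value is 15.0 on every array, as after quantile normalization. It may therefore not be separate from the alternative with quantile normalization.

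Outlier spots were left out and the others averaged per probe. Arrays were scaled to the 75th percentile of 181 probes detected throughout, floored at the 5th percentile of well-above-background values and put on the log2 scale. The brightest probe represented a miRNA. Of 611 mouse miRNAs, 407 were detected on no array and 157 were tested, with 9.02% of their values at the floor. limma 3.58.1 (R 4.3.3) was fitted to all 12 arrays with 4 group means, and p-values were Benjamini-Hochberg adjusted over the 157 (threshold 0.05). The median SE was 0.34, and the number of arrays limits the precision. No spot was saturated. The fit was tested on simulated data.

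Bounds set a group's mean against, on each array of the dim group, the higher of the lowest signal well above background and the dim probe's own.

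The members, gene lists and tests were chosen with earlier results of these data known. Named miRNAs are the 4 members, the 5 most correlated with miR-181a and with miR-181b, and up to 4 per list by size plus any that passed. Alternatives were other scalings, normexp, probe summaries, filters, floor, the slide or replicate number as a block, fewer arrays and the authors' table. Figures used matplotlib 3.10.9.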

Additional observations from a re-analysis of the deposited data

Results flagged for a closer look

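The difference between the MDI difference with lithium and that without lithium was 2.41 on the log2 scale for miR-181b. It is singled out because every lithium plus MDI array lay above the mean of the lithium arrays (by 0.20 to 1.33), and every MDI array lay below the mean of the preadipocyte arrays (at -2.17 to -1.27). The first of these parts did not pass its own test (0.65, limma adjusted p = 0.235), and the median over all tested miRNAs there was 0.39. In that comparison 26.1% of tested miRNAs lay wholly higher in lithium plus MDI. The first part was absent from the authors' deposited table. There lithium plus MDI arrays 1 and 2 of miR-181b (5.97 and 5.78) lay below every lithium array (6.06 to 6.15). The second part is the contrast that chose the family. Low lithium values of miR-181b also helped choose it. Both favour a large value, so the difference was not tested for miR-181b. For miR-181a the lithium plus MDI arrays lay on both sides of the lithium mean, from -0.67 to 0.94. How many other tested miRNAs show both parts was not counted, so how unusual the pattern is cannot be said.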

How the results depend on the processing

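All differences of both members from preadipocytes kept their direction under every alternative run. These runs reuse the arrays on which the family was chosen for its low values, so the kept direction is no further support. Averaged over both members, MDI minus preadipocytes was -1.71 and moved to -2.52 when arrays were scaled on every mouse probe, -2.61 unscaled and -1.07 with normexp. Lithium minus preadipocytes was -1.15 and moved to -2.05, -1.84 and, with the slide as a block, -0.44. Lithium plus MDI minus preadipocytes was -0.84 and moved to -1.89, -1.56, -0.13 with the slide as a block and -1.49 without the 3 arrays that stood apart. The difference between the MDI differences was 2.02 and moved to 2.68, 2.88 and 1.30 with normexp. Without scaling the median over all tested miRNAs was itself -0.70 for MDI and -0.69 for lithium against preadipocytes. miR-181a in lithium plus MDI minus lithium turned to 0.057 with normexp and ran from -0.51 to 0.29 with 1 array left out, and miR-181b in MDI minus lithium turned to 0.0083 with normexp. The within-array measure moved with normexp to 0.35 for MDI minus lithium, 0.34 for lithium plus MDI minus lithium and -0.41 for lithium minus preadipocytes; the cause of these shifts was not tested. Over the alternatives run, the limma adjusted p of miR-181a and miR-181b stayed above the threshold in the 3 tested comparisons, with an exception. For miR-181a in MDI against lithium it was 0.0314 without the 3 arrays that stood apart (range 0.0314 to 0.980). That fit favours passes, since those arrays were picked for low correlation to their own group. The passes of miR-155 and miR-27a kept their sign over the alternatives, with an adjusted p of 0.00116 to 0.694 and 0.000443 to 0.575.

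The number of miRNAs past the threshold varied more. MDI against preadipocytes had 5 (2 higher and 3 lower), 9 with quantile normalization, 48 with the all-probe percentile (1 and 47), 62 without scaling (1 and 61), 0 with normexp or the slide block, 15 in the authors' table, 11 with only the 6 arrays compared and 38 without the 3 arrays; leaving out 1 array gave 0 to 18, with 0 without preadipocyte array 1 or 2 or MDI array 2 or 3, 2 without lithium array 3, and 12 and 18 without lithium plus MDI arrays 2 and 3. Lithium against preadipocytes had 10 (8 higher and 2 lower), then 22 (11 and 11), 78 (4 and 74), 74 (7 and 67), 0 with normexp, 5 with the slide block, 21 in the authors' table (9 and 12), 3 among miRNAs detected on all arrays and 83 without the 3 arrays (33 and 50); with 1 array left out it had 2 to 33, namely 5, 3 and 33 without preadipocyte arrays 1, 2 and 3, and 26, 6 and 2 without lithium arrays 1, 2 and 3. Lithium plus MDI against lithium had 0, then 7 with quantile normalization, 1 without scaling, in the authors' table or with the 6 arrays compared, 10 and 9 with the median and mean over probes, 4 with the lower floor, 10 with the slide block, 15 within slide 2 and 88 without the 3 arrays; with 1 array left out it had 0 to 38, namely 38, 32, 24 and 10 without lithium plus MDI array 3, lithium array 1, preadipocyte array 3 and MDI array 1. MDI against lithium had 0, then 6, 1 without scaling, 2 with either probe summary, 4 with the slide block, 3 within slide 2 and 66 without the 3 arrays; with 1 array left out it had 0 to 25, namely 25, 11, 4 and 1 without lithium array 1, lithium plus MDI array 3, MDI array 1 and MDI array 2. The setting with no filter used 215 miRNAs, since those at the floor on all arrays were left out.

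The labels do not say whether the replicate numbers pair the arrays, and the values did not settle it. Of 18 same-numbered pairs, 9 had deviations correlated above 0.1 (range -0.48 to 0.47). Their median r was 0.06, against -0.06 for pairs with other numbers. In all, 6 of 12 arrays correlated best with their own number. With the replicate number as a block, 16 miRNAs passed in lithium plus MDI against lithium, and neither member did (limma adjusted p = 0.961 for miR-181a and 0.239 for miR-181b).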
